A study of Mus musculus with 8 samples.

Results

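The collagen genes of Stat5-null mouse embryonic fibroblasts are described here across 4 groups of arrays. The members are the probe sets for which the platform annotation gave exactly 1 gene symbol, made of Col, a number, the letter a and a number. This rule, which uses names and no measured value, found 82 probe sets of the 45037 tested, and they covered 42 genes of 26 collagen types among the 18193 genes named on the array. The members were, however, chosen with earlier results of these data known. By class there were 11 fibrillar genes, 6 of type IV, 2 multiplexin genes, 5 of type VI, 1 of type VII, 3 network-forming genes, 9 FACIT genes, 4 transmembrane genes and 1 other, Col26a1. A single probe set measured 15 of the genes, and up to 4 measured each of the other 27.

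RNA was measured on 8 Affymetrix arrays, 2 in each group. Fibroblasts of the C57BL/6 strain that lacked Stat5 had been infected with a retrovirus carrying a STAT5 mutant, either EA, a change of EE to AA that the labels place in the binding domain, or YF, the mutation Y694F. Cells of each mutant were left without stimulation or received growth hormone for 120 minutes, which gave the groups EA, EA with hormone, YF and YF with hormone. Both arrays of each group are described by the submitters as biological duplicates. The labels do not say whether each mutant was introduced in 1 infection or several, nor which cells took up the virus, and a group with wild-type STAT5 is not analysed here, so the mutant and the cell population that carries it cannot be told apart.

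Collagens are secreted trimers whose alpha chains wind into a triple helix. Fibrillar collagens form the banded fibrils of connective tissue, type IV forms the sheet of basement membranes, type VI forms beaded filaments around cells, and FACIT collagens sit on the surface of fibrils. Fibroblasts are the main source of the fibrillar collagens, while several other chains belong to cartilage, epithelia or nerve. STAT5 is a transcription factor that growth hormone activates by phosphorylation of a tyrosine.

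Each value is the log2 expression level of 1 probe set, as the authors deposited it, with medians of 2.85 to 2.94 over the 8 arrays and a highest value of 15.2 on every array. Of all probe sets, 55% had a mean under 4, and a group with a mean under 4 is called low here, because the files hold no detection calls and the scale below that bound is unknown. A fold with a low side is therefore of uncertain size. EA and YF arrays lay at opposite ends of the first principal component (69.9% of the variance). On the second (12.6%) YF with hormone replicate 1 stood apart at -55.81, against -3.28 for its partner. The brightest Stat5a probe set read 4.28 to 5.36 on the EA arrays and 7.82 to 8.51 on the YF arrays, a difference of -3.20 (SE 0.22, limma adjusted p = 0.00094). The part of the transcript it covers was not analysed here. Whether this reflects the level of the introduced STAT5 was not tested, and a difference in that level cannot be told apart from the mutation.

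The fibroblast label was checked against 12 markers, of which 10 lay at 4 or more in the EA groups and 11 in the YF groups. Of these 12, 6 were lower in EA on average, 0 were higher and 6 did not pass, with a median of -0.2. Among all probe sets 8.38% passed lower, and 33.8% of those with a mean of 4 or more passed. Vim and Prrx1 differed by 0.03 and -0.01 and neither passed. Thy1 was far lower in EA cells (7.48 to 7.79) than in YF cells (12.45 to 12.71), and Dcn was low in EA cells and not in YF cells. The mean level of the list was 9.59 to 9.84 on the EA arrays and 10.70 to 10.86 on the YF arrays. Some markers of other cell types also moved with the mutant. Krt19, the 1 of 5 epithelial markers at 4 or more, read 9.36 to 10.30 in EA cells and 3.77 to 5.53 in YF cells, while Epcam, Cdh1, Krt8 and Krt18 were low in all groups, and the list's mean was 3.85 to 4.05 in EA and 2.66 to 2.97 in YF. Of the 5, 2 passed higher in EA on average (8.17% of all probe sets did), with 1 of these calls on a marker low in all groups. The smooth muscle list had a mean of 8.65 to 8.94 in EA and 11.15 to 11.46 in YF, where Cnn1 and Myh11 were higher. Of the cartilage markers Acan, Matn1 and Cnmd were low in all groups, as were all 5 skeletal muscle and all 3 measured bone markers. Of the mesothelial markers, Msln was higher in EA cells (a log2 difference of 5.87), Wt1 was lower (-5.29), and Upk3b and Lrrn4 were low in all groups. Cd68 was higher in EA (10.77 to 11.28 against 7.57 to 8.49), with the leukocyte list's mean at 5.26 to 5.42 against 4.63 to 4.91 and Ptprc, Adgre1 and Itgam low in all groups. Csf1r, the other leukocyte marker at 4 or more, did not pass, and the lowest difference on that list was -0.38. Tek, of endothelium, was lower in EA (-1.58) with Pecam1, Cdh5, Kdr and Emcn low, and S100b, of glia, was higher (1.66) with Sox10 low. Cebpa, of fat, was higher (0.76) with Adipoq low, but the other measured fat markers did not pass, the lowest at -0.62. The mean of the fat list overlapped between the mutants, at 8.18 to 8.29 in EA and 8.08 to 8.44 in YF. The part of these shifts in the collagen differences below was not tested, and in bulk RNA fewer cells of a type and less RNA per cell cannot be told apart.

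The collagen genes spanned the range of the array, from type I and type III chains above 14 on every array to a set of genes that was low throughout. Of the 42 genes, each represented by its probe set with the highest mean, 22 lay at 4 or more in all groups, 16 were low in all groups and 4 were low in some (Col2a1, Col4a6, Col15a1 and Col17a1). The 16 low genes read 1.93 to 2.92 over all arrays. They were Col11a2 and Col24a1 of the fibrillar class, Col4a3 and Col4a4 of type IV, Col6a4 and Col6a5 of type VI, Col9a1, Col9a2, Col14a1, Col19a1, Col20a1 and Col22a1 of the FACIT class, the transmembrane Col13a1, Col23a1 and Col25a1, and Col26a1. Counted by probe set, 41 of 82 were low in all groups, 5 in some and 36 in none. The plot of array values by gene shows the 26 genes that were not low throughout.

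**Figure D1:**
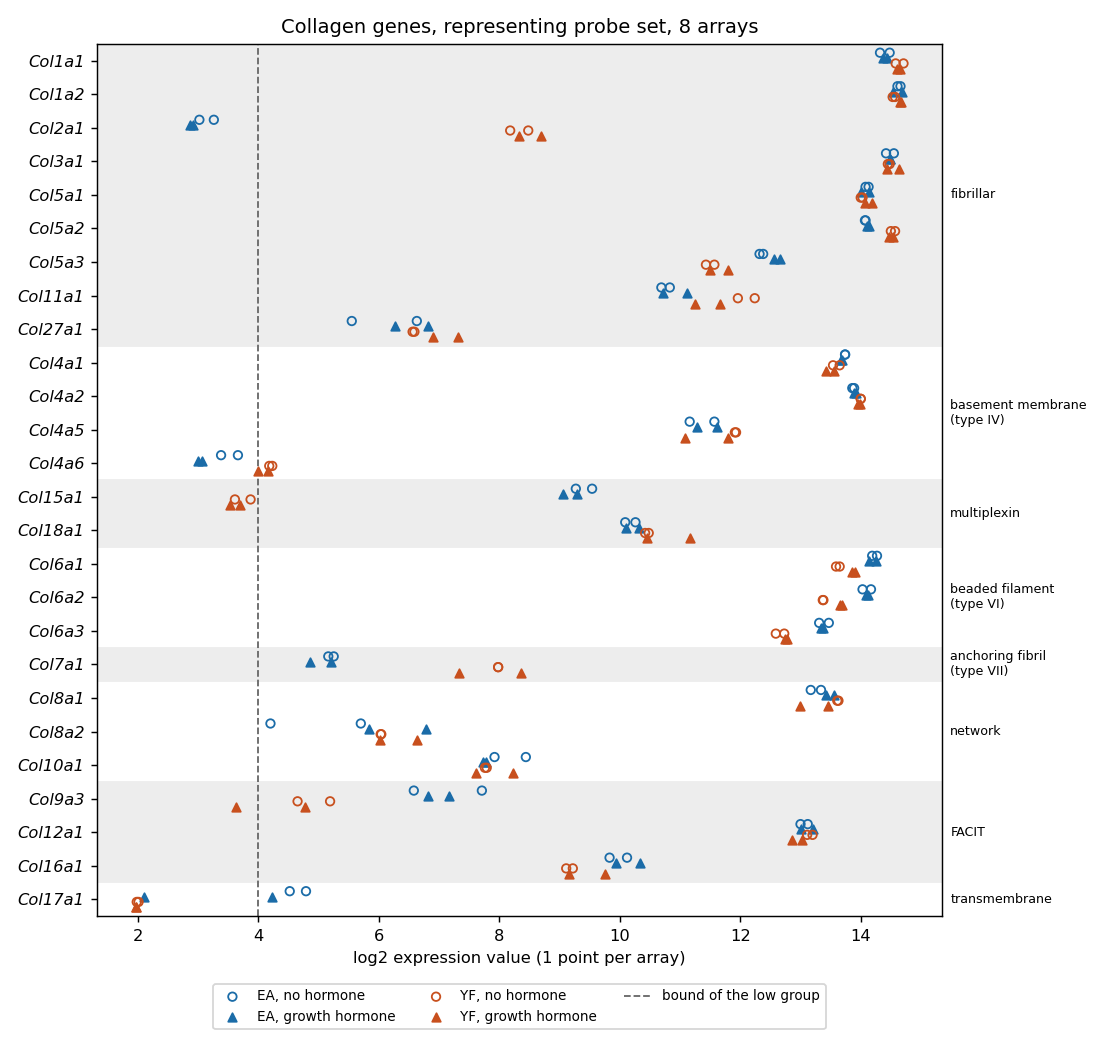
Log2 expression value (horizontal axis) of the 26 collagen genes that were not low in all groups, with 1 point per array and the representing probe set of each gene, grouped by class. Blue marks EA and orange YF cells, circles no hormone and triangles growth hormone, and the dashed line is the bound of 4. Col15a1 and Col2a1 lie on opposite sides of the bound in the 2 mutants, and Col1a2, Col3a1 and Col5a1 overlap between them.

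The first question was how the collagen genes differ between the mutants. They differed in both directions. The type VI genes Col6a1, Col6a2 and Col6a3 (3 of 5), Col15a1, Col9a3 and Col5a3 were higher in EA cells, and Col2a1, Col7a1, Col11a1 and Col5a2 were higher in YF cells. Averaged over both treatments, 24 of 82 collagen probe sets passed an adjusted p under 0.05 in limma (29.3%, against 16.5% of all probe sets), 8 of them higher in EA (8.17% of all probe sets) and 16 lower (8.38%). Among probe sets with a mean of 4 or more, 22 of 39 collagen probe sets passed (56.4%), against 33.8% of all such probe sets. The median difference over the collagen genes was 0.02 and that over all probe sets 0.02. The 4 EA and the 4 YF arrays did not overlap for 33 of 82 collagen probe sets (40.2%), against 18.6% of all probe sets.

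By treatment, 18 collagen probe sets passed without hormone (22%, against 10.8% of all probe sets), 7 higher in EA (5.51%) and 11 lower (5.25%). With hormone 17 passed (20.7%, against 10.2%), 7 higher (4.37%) and 10 lower (5.8%). The same 15 passed under both treatments, all in the same direction. Those that passed under 1 treatment were a dim Col1a2 probe set, a second Col3a1 probe set and the brighter Col11a1 probe set without hormone, and another Col1a2 probe set and Col9a3 with hormone, named after their values were seen. None of the 5 passed the test of the difference between treatments (adjusted p of 0.23 to 0.80). Without YF with hormone replicate 1, the array that stands apart, 11 passed with hormone, 19 without it and 23 on average. Without EA with hormone replicate 2 the count with hormone was 8. Without hormone, leaving out EA replicate 1, YF replicate 1 or YF replicate 2 gave 11, 11 and 10. Each of these fits left 1 array in a group, and the count over all probe sets moved in the same direction each time. With 2 arrays per group, p-values measure the spread between these arrays, which may be technical in part.

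**Figure D2:**
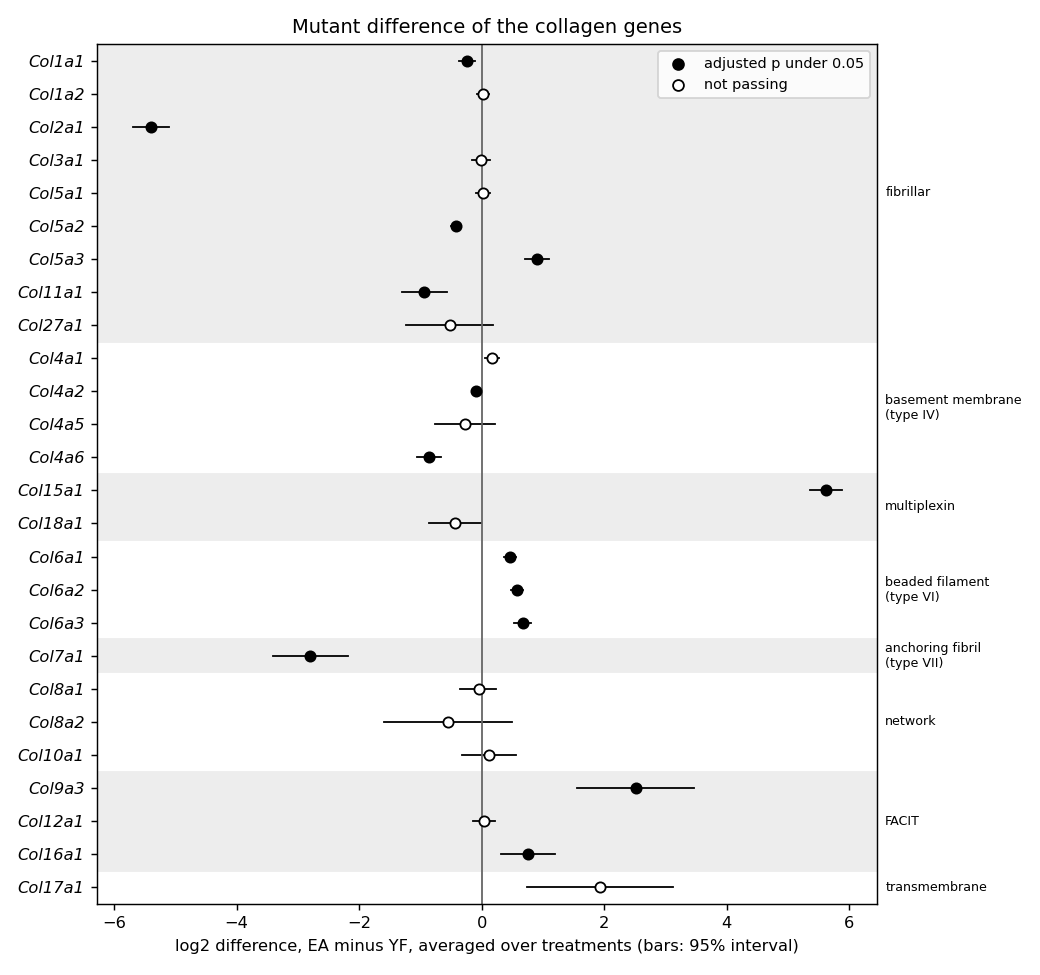
Log2 difference, EA minus YF averaged over treatments (horizontal axis), for the representing probe set of the 26 collagen genes that were not low in all groups, with 95% intervals from limma as bars. Filled points passed an adjusted p under 0.05, 7 to the right of 0 (higher in EA) and 7 to the left. The ends are Col15a1 at 5.62 and Col2a1 at -5.40.

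The fibrillar class held 11 genes and 21 probe sets, of which 1 probe set was higher and 11 were lower in EA cells on average, against 8.17% and 8.38% of all probe sets. Most of its probe sets, 15 of the 21, lay at 4 or more in all groups, and 33.8% of all probe sets with a mean of 4 or more passed. Counted by representing probe set, 1 gene was higher, 4 were lower and 6 did not pass. The widest difference was that of Col2a1, the chain of the main fibrils of cartilage. It read 3.02 and 3.26 on the EA arrays and 2.87 and 2.91 on the EA arrays with hormone, but 8.18 and 8.48 on the YF arrays and 8.69 and 8.32 on the YF arrays with hormone. All 4 EA values lay under the bound and all 4 YF values far above it. The difference was -5.40 (SE 0.12, adjusted p = 3e-05), nominally 42.2-fold, with the EA side low. Of the cartilage markers measured beside it, Comp was also lower in EA (-1.39, adjusted p = 0.001), Sox9 was higher (0.46, adjusted p = 0.020), and Acan, the main cartilage proteoglycan, stayed low. Of the 5 markers, 2 passed lower and 1 higher (8.38% and 8.17% of all probe sets did), with 1 of these calls on a marker low in all groups.

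Col11a1, whose chain lies inside type II and type I fibrils and limits their width, was lower in EA cells on both of its probe sets. The brighter one gave 10.83 and 10.69 in EA, 10.71 and 11.12 in EA with hormone, 11.96 and 12.24 in YF, and 11.25 and 11.67 in YF with hormone. Every EA value was below every YF value, with the narrowest gap between the hormone groups. The difference was -0.94 (SE 0.15, adjusted p = 0.012) on this probe set and -1.01 (SE 0.10, adjusted p = 0.0025) on the other. Col11a2, the partner chain, was low throughout.

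The chains of type V, which starts and sizes type I fibrils, split. Col5a3 was higher in EA cells, at 12.32 and 12.38 without hormone and 12.56 and 12.66 with it, against 11.43 and 11.57 and then 11.80 and 11.50 in YF cells. The groups did not overlap, and the difference was 0.90 (SE 0.08, adjusted p = 0.0018). Col5a2 was lower in EA cells, at 14.07, 14.08, 14.13 and 14.10 on the EA arrays and 14.50, 14.57, 14.47 and 14.53 on the YF arrays, in the order without and with hormone. The arrays of a mutant lay close together and the mutants did not overlap. The difference was -0.42 (SE 0.03, adjusted p = 0.0011), and -0.85 (adjusted p = 0.0013) on a second probe set. Col5a1 depended on the probe set. Its brightest read 14.08, 14.13, 14.14 and 14.01 in EA and 14.00, 14.03, 14.19 and 14.07 in YF. These values overlapped and the difference did not pass (0.02, interval -0.10 to 0.13, adjusted p = 0.83). Its other probe sets were lower in EA, one with a difference of -1.40 (adjusted p = 0.0015) and the other of -0.80 (adjusted p = 0.0034).

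The chains of type I and type III, the bulk collagens of fibroblasts, differed little on their brightest probe sets. Those probe sets lie near the top of the scale, and whether differences are compressed there was not tested. Col1a1 read 14.32, 14.48, 14.43 and 14.37 on the EA arrays and 14.58, 14.71, 14.66 and 14.61 on the YF arrays. The mutants did not overlap, with a difference of -0.24 (SE 0.05, adjusted p = 0.031), but the second Col1a1 probe set overlapped and gave -0.02 (interval -0.16 to 0.11, adjusted p = 0.82). The Col1a1 call was lost without YF with hormone replicate 1 (-0.23, adjusted p = 0.086) and in 9 of 15 alternatives in all. On its brightest probe set Col1a2, the second chain of type I, read 14.61, 14.66, 14.69 and 14.54 in EA and 14.53, 14.57, 14.67 and 14.65 in YF. The mutants overlapped and the difference did not pass (0.02, interval -0.08 to 0.12, adjusted p = 0.80), while another probe set gave -0.24 (SE 0.04, adjusted p = 0.0099). Col3a1 read 14.55, 14.42, 14.49 and 14.48 in EA and 14.45, 14.48, 14.44 and 14.64 in YF. It overlapped too (-0.02, interval -0.16 to 0.13, adjusted p = 0.87), and its second probe set gave -0.54 (SE 0.07, adjusted p = 0.0077). Col27a1, a fibrillar chain known from cartilage, read 5.55 to 6.82 in EA and 6.56 to 7.31 in YF and did not pass (-0.52, adjusted p = 0.37). A second Col27a1 probe set passed (-0.98, adjusted p = 0.0034) with all groups low.

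The 12 genes with at least 2 probe sets that were not low throughout show how far a call on the average over treatments rested on the probe set. In 6 of them all such probe sets gave the same call, and in 6 the calls differed (Col1a1, Col1a2, Col3a1, Col5a1, Col18a1 and Col8a1). The same call can hide a conflict. Neither Col4a1 probe set passed, but their differences had opposite signs (0.17 and -0.21), and on both the EA and YF arrays did not overlap. On the average over treatments, in none did probe sets of 1 gene pass in opposite directions. By treatment, a dim Col1a2 probe set passed higher in EA without hormone (0.76, adjusted p = 0.019) and another passed lower with it (-0.26, adjusted p = 0.038). The widest spread was in Col5a1, whose differences ran from -1.40 to 0.02, and the narrowest in Col11a1, from -1.01 to -0.94. Levels of different probe sets are not compared, and which stretch of the transcript each covers was not analysed here.

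**Figure D3:**
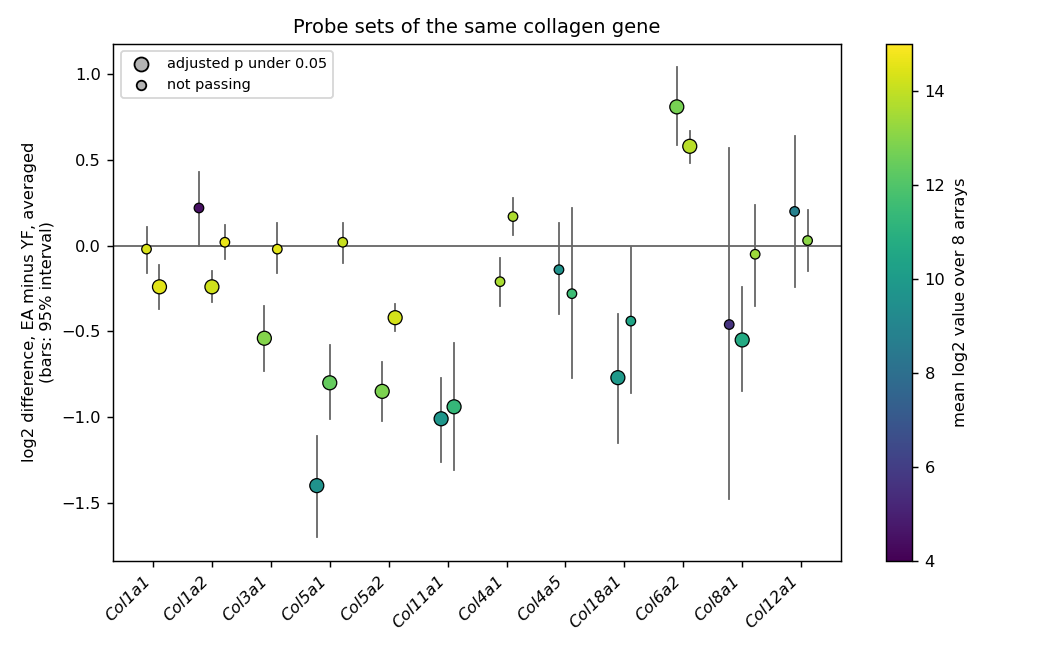
Log2 difference, EA minus YF averaged over treatments (vertical axis), of every probe set that was not low in all groups, for the 12 collagen genes with at least 2 of them. Bars are 95% intervals, colour gives the mean log2 value over the 8 arrays, and large points passed. Both Col6a2 points lie above 0 and both Col5a2 and Col11a1 points below it, while Col5a1 spans -1.40 to 0.02.

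Type IV chains assemble in fixed partnerships, and their genes lie head to head in pairs. Col4a1 and Col4a2, the pair found in nearly every basement membrane, were at similar levels in all groups. Col4a2 read 13.86, 13.89, 13.92 and 13.89 on the EA arrays and 14.00, 14.00, 13.99 and 13.96 on the YF arrays. The YF values were all higher, but by very little, and the difference of -0.10 (SE 0.02, adjusted p = 0.047) was lost in 13 of 15 alternatives, among them the fit without YF with hormone replicate 1 (-0.09, adjusted p = 0.13). Neither Col4a1 probe set passed, at 0.17 (adjusted p = 0.060) and -0.21 (adjusted p = 0.062). The windows around the starts of this pair in RefSeq, chr8:11312777-11313076 for Col4a1 and chr8:11312555-11312854 for Col4a2 (GRCm38.p6), overlap on opposite strands.

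Of the pair Col4a5 and Col4a6, Col4a5 read 11.16 to 11.61 in EA and 11.09 to 11.93 in YF and did not pass (-0.28, interval -0.77 to 0.22, adjusted p = 0.54). Col4a6, a chain of epithelial and smooth muscle basement membranes, read 3.66 and 3.38 in EA, 2.99 and 3.06 in EA with hormone, 4.23 and 4.18 in YF, and 4.16 and 4.00 in YF with hormone. It was low on all EA arrays and just at or above the bound on the YF arrays. The difference was -0.86 (SE 0.08, adjusted p = 0.0018), of uncertain size because of the low side. The pair Col4a3 and Col4a4, chains of kidney and lung basement membranes, was low in all groups.

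The multiplexins Col15a1 and Col18a1 lie at the border of basement membranes and carry sugar side chains. Col15a1 had the widest difference of all collagen genes. It read 9.54 and 9.27 in EA, 9.29 and 9.06 in EA with hormone, 3.87 and 3.61 in YF, and 3.69 and 3.53 in YF with hormone. Every EA value was far above the bound and every YF value below it. The difference was 5.62 (SE 0.10, interval 5.36 to 5.88, adjusted p = 1.9e-05), nominally 49.2-fold, with the YF side low. Col18a1, the source of endostatin, ran the other way. Its brighter probe set read 10.09 to 10.32 in EA and 10.42 to 11.16 in YF, which do not overlap, and did not pass (-0.44, adjusted p = 0.19). Its second passed (-0.77, SE 0.15, adjusted p = 0.023).

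Type VI collagen is assembled from the chains of Col6a1, Col6a2 and either Col6a3 or a later relative. The 3 main chains were all higher in EA cells under both treatments. Col6a1 read 14.27 and 14.19 in EA, 14.25 and 14.14 in EA with hormone, 13.59 and 13.65 in YF, and 13.91 and 13.86 in YF with hormone. Col6a2 read 14.17 and 14.03, 14.09 and 14.12, 13.37 and 13.38, and 13.65 and 13.69 in the same order. Col6a3 read 13.47 and 13.31, 13.34 and 13.38, 12.59 and 12.73, and 12.74 and 12.77. In each of these genes all EA values exceeded all YF values, and the unstimulated YF arrays held the lowest. The averaged differences were 0.46 for Col6a1 (SE 0.04, adjusted p = 0.0016), 0.58 for Col6a2 (SE 0.04, adjusted p = 0.00073) and 0.67 for Col6a3 (SE 0.05, adjusted p = 0.0014), or 1.38-, 1.49- and 1.59-fold. Col6a1 and Col6a2 read near the top of the scale, and whether their folds are compressed was not tested. A second Col6a2 probe set, of the kind whose probes may match other transcripts too, gave 0.81 (SE 0.09, adjusted p = 0.0034). The alternatives to Col6a3 on the array, Col6a4 and Col6a5, were low in all groups. Without YF with hormone replicate 1, Col6a1 no longer passed with hormone (0.33, adjusted p = 0.081), while the averaged calls of the 3 chains held in all 15 alternatives.

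Type VII collagen forms the anchoring fibrils that fasten the epidermis to the dermis, and Col7a1 is its sole chain. Col7a1 read 5.16 and 5.25 in EA, 4.85 and 5.21 in EA with hormone, 7.98 and 7.98 in YF, and 8.36 and 7.33 in YF with hormone. The EA values lay close together and well below the YF values, whose hormone arrays were the most spread. The difference was -2.80 (SE 0.24, adjusted p = 0.0017), or 6.96-fold higher in YF, and -2.54 without YF with hormone replicate 1.

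The sequences before the transcription start are shown for the genes with the widest difference on each side that had an entry, Col15a1 and Col7a1, and for Col6a1 and Col6a2, which moved together. They are the 250 bases up to the start from RefSeq (GRCm38.p6), written in the direction of transcription, at chr4:47207762-47208011 (plus strand) for Col15a1, chr9:108953336-108953585 (plus) for Col7a1, chr10:76726045-76726294 (minus) for Col6a1 and chr10:76623631-76623880 (minus) for Col6a2, of whose 2 starts this is the upstream one. Capitals mark GGGCGG, the core of the GC box, on either strand.
Col15a1: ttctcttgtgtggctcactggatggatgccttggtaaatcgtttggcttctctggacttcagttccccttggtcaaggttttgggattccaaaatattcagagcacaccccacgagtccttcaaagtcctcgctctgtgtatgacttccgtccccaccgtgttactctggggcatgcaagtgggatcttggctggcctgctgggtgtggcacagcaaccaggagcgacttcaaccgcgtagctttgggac
Col7a1: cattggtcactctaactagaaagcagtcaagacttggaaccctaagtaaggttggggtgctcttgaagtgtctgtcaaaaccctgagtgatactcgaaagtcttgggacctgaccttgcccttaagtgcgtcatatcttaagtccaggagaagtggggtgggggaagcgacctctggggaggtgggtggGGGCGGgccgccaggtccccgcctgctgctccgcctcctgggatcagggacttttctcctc
Col6a1: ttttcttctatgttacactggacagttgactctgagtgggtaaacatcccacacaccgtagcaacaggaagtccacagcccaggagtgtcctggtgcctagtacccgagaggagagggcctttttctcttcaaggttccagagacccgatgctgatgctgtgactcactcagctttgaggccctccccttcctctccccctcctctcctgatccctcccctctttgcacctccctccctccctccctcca
Col6a2: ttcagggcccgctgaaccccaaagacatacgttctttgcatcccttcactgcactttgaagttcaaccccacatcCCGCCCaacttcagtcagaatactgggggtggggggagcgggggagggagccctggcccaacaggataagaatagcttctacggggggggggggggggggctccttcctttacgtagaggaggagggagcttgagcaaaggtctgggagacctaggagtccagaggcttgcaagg
The Col7a1 and Col6a2 stretches hold 1 such match each, and the Col15a1 and Col6a1 stretches none.

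RefSeq promoters of 300 bases, which also take in the first 50 bases after the start, were found for 33 of the 42 genes (36 promoters). The motif TTCNNNGAA, a palindrome bound by STAT factors, occurred in 1 of the 36 (2.78%), that of Col6a5 (position -209 from the start), against 8.3% of 32851 promoters of the same length. Col6a5 was low in all groups. GGGCGG on either strand occurred in 22 of the 36 (61.1%), against 35.7%. A match is only a match of letters, and its absence from the window says nothing about more distant sites.

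Among the network collagens no representing probe set passed. Col8a1, a short-chain collagen of vessel walls and the cornea, read 13.17 to 13.56 in EA and 12.99 to 13.63 in YF (-0.05, interval -0.35 to 0.24, adjusted p = 0.81). A second Col8a1 probe set was lower in EA (-0.55, SE 0.12, adjusted p = 0.036) and another was not called (-0.46, adjusted p = 0.65). Its partner Col8a2 read 4.20 and 5.70 on the unstimulated EA arrays and 5.83 to 6.79 on the others, and the wide spread between duplicates left a difference of -0.55 with an interval of -1.59 to 0.49. Col10a1, known from hypertrophic cartilage, overlapped between the mutants (0.12, adjusted p = 0.73).

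Of the 9 FACIT genes, 2 were higher in EA cells on average and 6 were low throughout. By probe set 2 of 24 were higher and 0 lower, against 8.17% and 8.38% of all probe sets, and 20 were low in all groups. The share higher was thus close to that over all probe sets. Col9a3 encodes a chain of type IX, which coats type II fibrils in cartilage. It read 7.71 and 6.58 in EA, 7.17 and 6.82 in EA with hormone, 5.19 and 4.65 in YF, and 3.62 and 4.78 in YF with hormone. All EA values were higher, though the duplicates of a group differed widely. The difference was 2.51 (SE 0.38, adjusted p = 0.011), or 5.7-fold. It passed with hormone (2.80, adjusted p = 0.035) and not without (2.22, adjusted p = 0.066), and without YF with hormone replicate 1 the 2 adjusted p-values were 0.10 and 0.049. The sister chains Col9a1 and Col9a2, with which it forms the type IX trimer, were low in all groups, as were its own other probe sets. Its direction is opposite to that of Col2a1, whose fibrils type IX coats.

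Col16a1, a FACIT chain of skin and vessel walls, read 9.83 and 10.12 in EA, 10.33 and 9.94 in EA with hormone, 9.11 and 9.22 in YF, and 9.76 and 9.15 in YF with hormone. The mutants did not overlap, but YF with hormone replicate 1 came close to the EA values. The difference was 0.75 (SE 0.17, adjusted p = 0.043) and was lost in 10 of 15 alternatives, though not without that array (0.90, adjusted p = 0.019). Col12a1, which binds type I fibrils in tendon and ligament, read 13.00 to 13.20 in EA and 12.86 to 13.20 in YF and did not pass (0.03, adjusted p = 0.81).

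Of the transmembrane collagens Col17a1, a component of the hemidesmosomes that anchor basal epithelial cells, was the 1 not low in all groups. It read 4.52 and 4.79 in EA, 4.23 and 2.10 in EA with hormone, 2.01 and 1.98 in YF, and 1.96 and 1.96 in YF with hormone. On 3 of the 4 EA arrays it was above the bound, and on EA with hormone replicate 2 and all YF arrays it was not. The averaged difference of 1.93 (SE 0.47, interval 0.74 to 3.12) just missed the threshold, with an adjusted p that rounds to 0.05. Krt19, also of epithelia, was higher in EA cells as given above, and its part in this was not tested. Col13a1, Col23a1 and Col25a1 were low in all groups.

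The second question was whether growth hormone changed collagen RNA within 120 minutes. No collagen probe set passed in limma. In EA cells 0 of 82 passed (0.135% of all probe sets did), and 1 had an unadjusted p under 0.05, that of Col4a6 (5.62% of all did). In YF cells 0 passed (0.18% of all), and 6 had an unadjusted p under 0.05 (11.4% of all). For the difference between the mutants' responses 0 passed (0.02% of all), and 8 had an unadjusted p under 0.05 (9.74% of all). The collagen counts at this level were thus near or below the share over all probe sets. The smallest adjusted p over the members was 0.40, 0.11 and 0.23 in these comparisons.

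The brightest probe sets of the bulk fibrillar genes, which lie near the top of the scale, gave narrow intervals. Whether changes are compressed there was not tested, so a narrow interval does not by itself exclude a response. The hormone difference of Col1a1 was 0.00 in EA and -0.01 in YF, that of Col3a1 0.00 and 0.07, and that of Col5a2 0.04 and -0.03. The second probe sets of Col3a1 and Col1a1 gave -0.27 (interval -0.54 to -0.01, adjusted p = 0.43) and 0.17 (interval -0.02 to 0.37, adjusted p = 0.47) in YF, and neither passed. Over the 26 genes that were not low throughout, the response was -1.48 to 1.36 in EA and -0.72 to 0.53 in YF. The 95% interval lay within 1 log2 unit of 0 for 20 of the 26 genes in EA and for 20 in YF, and for 14 when the responses were compared. The median half-width of the interval was 0.33 in each mutant and 0.46 for the comparison of the responses.

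At the upper end in YF was Col27a1 (0.53, interval -0.47 to 1.53, adjusted p = 0.55), at 6.56 and 6.59 without hormone and 6.90 and 7.31 with it. The other ends were genes whose duplicates lay far apart. Col17a1 gave -1.48 in EA (SE 0.66, interval -3.17 to 0.20, adjusted p = 0.87) and would have passed without EA with hormone replicate 1 (-2.55, adjusted p = 0.025), which leaves replicate 2, at 2.10, as the lone array of its group. Col8a2 gave 1.36 in EA (adjusted p = 0.87). Col9a3 gave -0.72 in YF (SE 0.54, adjusted p = 0.55), and -0.14 without YF with hormone replicate 1.

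Of the 6 probe sets with an unadjusted p under 0.05 in YF cells, 3 had values above 0 and 3 below. Those below were Col11a1 (-0.63, interval -1.16 to -0.10, adjusted p = 0.37), the second Col3a1 probe set (-0.27, adjusted p = 0.43) and Col24a1 (-0.18, adjusted p = 0.42), which was low in all groups. Those above were Col6a1 (0.26, adjusted p = 0.21), Col6a2 (0.30, adjusted p = 0.18) and a dim Col1a2 probe set, while Col6a3 gave 0.09 (adjusted p = 0.55). In EA cells the same genes gave -0.03, 0.00 and -0.03. The Col1a2 probe set with the smallest adjusted p, 0.11, was a dim one, at 3.82 and 3.93 in YF and 4.97 and 4.64 in YF with hormone. Both hormone values exceeded both unstimulated ones, by 0.93 on average, and without YF with hormone replicate 2 it passed (1.10, adjusted p = 0.028). The brighter Col1a2 probe sets gave 0.11 and -0.04 and did not pass. A Col20a1 probe set, low in all groups, passed in EA without EA replicate 1 (-1.30, adjusted p = 0.022), where EA replicate 2 read 3.38 and every other array 2.20 or less.

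**Figure D4:**
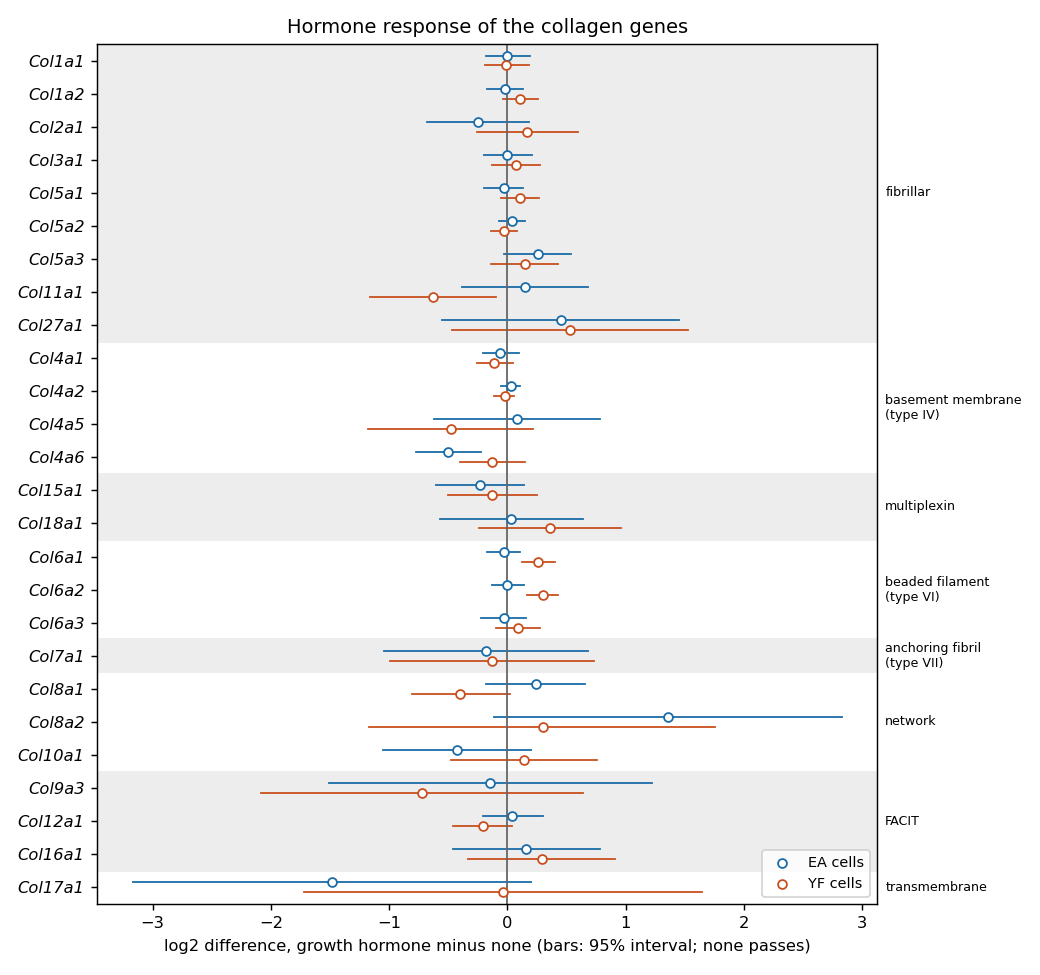
Log2 difference, growth hormone minus none (horizontal axis), in EA cells (blue) and YF cells (orange) for the representing probe set of the 26 collagen genes that were not low in all groups, with 95% intervals as bars. No point passed. The intervals of Col1a1, Col1a2 and Col5a2 are narrow and those of Col17a1, Col8a2 and Col9a3 wide.

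Genes that modify, fold, trim and cross-link collagen were mostly higher in YF cells where they passed. Of a list of 32 such genes 28 were measured, and on average 2 were higher in EA, 15 were lower and 11 did not pass, with a median of -0.29 over the genes against 0.02 over all probe sets. Of the 28, 25 lay at 4 or more in all groups, and among all probe sets 16.5% passed, or 33.8% of those with a mean of 4 or more. By treatment the mutant comparisons called 11 genes each. Without hormone 3 were higher and 8 lower, where 10.8% of all probe sets passed (5.51% higher and 5.25% lower). With hormone 2 were higher and 9 lower, where 10.2% of all passed (4.37% higher and 5.8% lower). Hormone called none of the 28 in either mutant (0.135% and 0.18% of all probe sets), and 4 of the list's 48 probe sets had an unadjusted p under 0.05 in EA and 7 in YF, against 5.62% and 11.4% of all probe sets.

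Of the enzymes that hydroxylate proline and lysine inside the cell, P3h2, a prolyl 3-hydroxylase that acts on type IV chains, read 3.46, 3.97, 4.45 and 4.30 in EA and 7.23, 7.37, 6.66 and 6.62 in YF. The YF values were all higher, with unstimulated EA in the low range, and the difference was -2.92 (SE 0.12, adjusted p = 0.0002). P4ha3 and P4ha1, catalytic subunits of prolyl 4-hydroxylase, gave -1.53 (adjusted p = 0.0012) and -0.66 (adjusted p = 0.017), and P3h1 gave -0.74 (adjusted p = 0.0027). The lysyl hydroxylases Plod1 and Plod2 gave -1.02 (adjusted p = 0.011) and -0.84 (adjusted p = 0.0043).

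Outside the cell the ends of procollagen are cut off. Pcolce2, an enhancer of the cleavage of the carboxyl end, read 5.14, 5.57, 5.08 and 4.00 in EA and 10.15, 10.21, 10.80 and 10.40 in YF. No EA value came near a YF value, and the difference was -5.44 (SE 0.27, adjusted p = 0.00032). The proteinases that make this cut, Tll1 and Bmp1, gave -2.19 (SE 0.16, adjusted p = 0.001) and -0.57 (adjusted p = 0.016), and Adamts3, which cuts the amino end, gave -2.07 (SE 0.12, adjusted p = 0.00055). Loxl3, a lysyl oxidase that starts cross-links, was 1 of the 2 genes higher in EA, at 12.12, 12.14, 12.29 and 12.13 against 10.85, 10.86, 11.48 and 11.24, a difference of 1.06 (SE 0.07, adjusted p = 0.00065). The other was Loxl1 (0.32, adjusted p = 0.0065), named after its value was seen.

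Of 10 genes for collagen receptors 9 were measured, and on average 0 were higher in EA, 3 were lower and 6 did not pass, with a median of -0.18. By probe set 7 of 26 passed, all of them lower, while 16.5% of all probe sets passed and 8.38% passed lower. Among all probe sets with a mean of 4 or more 33.8% passed. That share is not set against 3 of 9, because 3 of the 9 genes were low in all groups and 1 in some. Itga1, the alpha chain of an integrin that binds collagen, read 9.44, 9.28, 9.21 and 9.34 in EA and 10.96, 10.78, 10.84 and 10.71 in YF. The mutants were well apart, and the difference was -1.51 (SE 0.07, adjusted p = 0.00024). Itgb1, its partner chain, gave -0.23 (adjusted p = 0.041) and Mrc2, an uptake receptor, -0.18 (adjusted p = 0.030), both named after their values were seen. The discoidin receptors Ddr1 and Ddr2 did not pass (0.26, adjusted p = 0.57, and 0.15, adjusted p = 0.057). Hormone called none of the 9 in either mutant, and 1 probe set of the list had an unadjusted p under 0.05 in each.

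**Figure D5:**
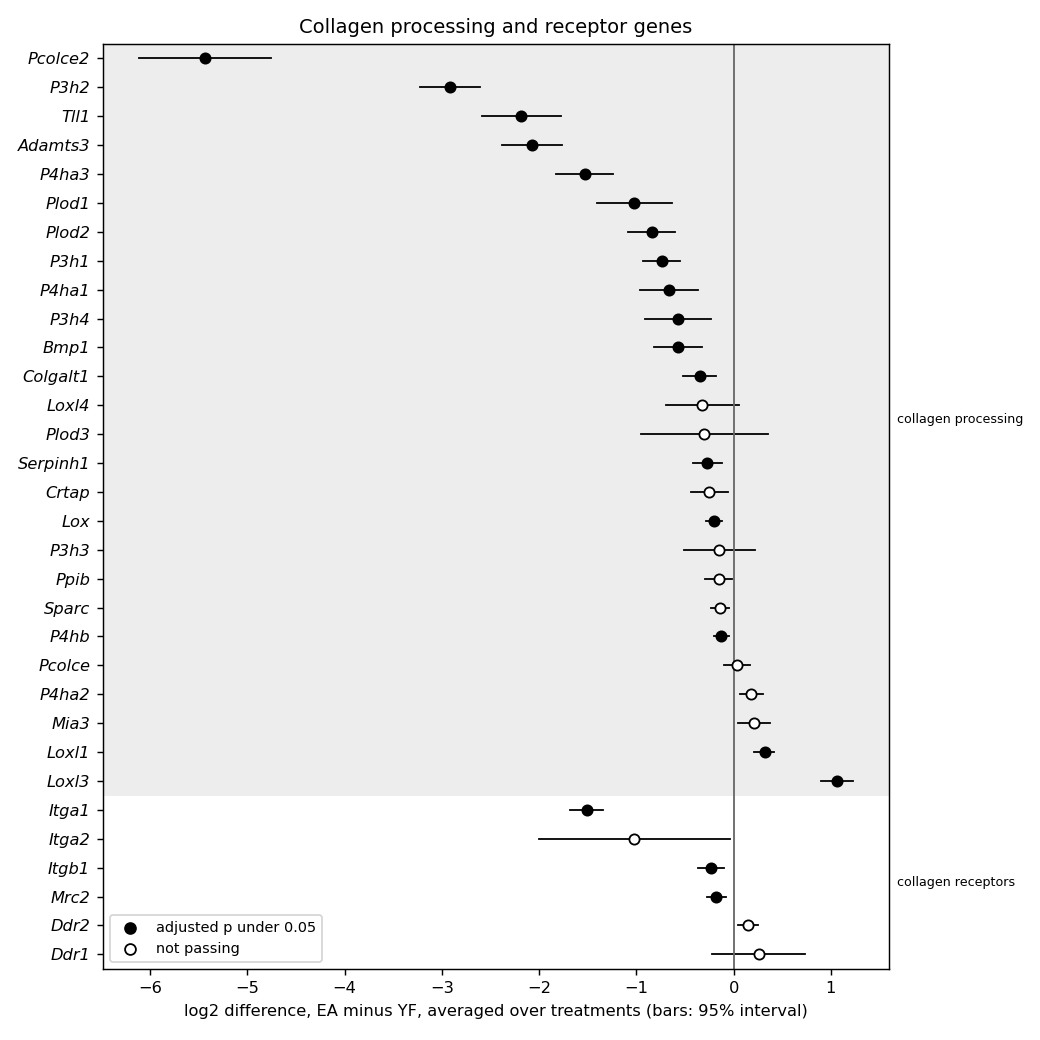
Log2 difference, EA minus YF averaged over treatments (horizontal axis), for the collagen processing and collagen receptor genes that were not low in all groups, with 95% intervals as bars and filled points where the adjusted p was under 0.05. Pcolce2 lies at -5.44 and Loxl3 at 1.06, and Loxl1 and Loxl3 are the filled points to the right of 0.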

How the data were processed

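Per the labels' protocols, RNA was isolated with TRIzol and biotinylated cRNA was hybridised. The table deposited by the authors holds log2 expression values, with a column for each array. GCOS, the scanner software, and RMA are named in the submitters' processing notes, their role and version being not given in the sources used here. A log base of 2 is read from the range of the values. No further normalization was applied. Of 45101 probe sets, 64 controls were left out. The platform annotation gave 1 symbol for 34945 of the rest, several for 932 and none for 9160. All 82 collagen probe sets matched the RefSeq gene table (GRCm38.p6) by gene ID, and 0 symbols changed.

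The test was limma's lmFit and eBayes (limma 3.58.1 in R 4.3.3), in a model of 4 group means over the 8 arrays with 4 residual degrees of freedom (prior 1.26) and 6 contrasts. Tests were two-sided, and p was adjusted by Benjamini-Hochberg over 45037 probe sets. Every adjusted p in the text is from limma, intervals are 95%, and n is 2 arrays per group. Precision is limited by the number of arrays. The code was tested on simulated data.

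A gene was represented by its probe set of highest mean. Array values are given for collagen genes not low in all groups that passed a contrast and for the 6 with the highest mean. Up to 12 passing genes of the processing and receptor lists are named. Members and lists were chosen with earlier results of these data known. Alternatives were quantile normalization, median centring, a filter on low values, trend and robust options, only the arrays compared, array weights, a replicate block and leaving out each array. Deviations of same-numbered arrays correlated at -0.30 to 0.37, so the numbers were not taken to pair the arrays.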

Additional observations from a re-analysis of the deposited data

How the results depend on the processing

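Counts of passing collagen probe sets kept within 1.5 times their reported value in all alternatives, except as follows. With hormone, 17 became 8 when only the arrays compared were fitted and 7 with array quality weights. Over all probe sets the count with hormone fell too, from 4579 to 2381 with only the arrays compared and to 1876 with weights. Leaving out 1 array gave 10 to 19 without hormone (18 with all arrays), 8 to 17 with hormone, 19 to 23 on average (24 with all arrays), 0 to 1 for the hormone response in each mutant and 0 for the difference of the responses. The fits without an array, or of only the arrays compared, use fewer arrays, and their counts over all probe sets changed too. The weights were 1.861 for each EA array and 1.61 for each YF array without hormone, and 0.434 and 0.769 with it. With them 7524 of all probe sets passed without hormone, against 4847 in the reported fit. The cause of the change with array weights, where all 8 arrays were fitted, was not tested. With the replicate block 17, 14 and 21 passed without hormone, with hormone and on average, against 18, 17 and 24. With the numbers of the unstimulated EA arrays crossed, an alternative chosen after seeing the data, the counts were 19, 19 and 26. Of 846 alternative values for 54 results on single genes, 751 kept direction and side of the threshold, 74 lost a call, 11 gained one and 10 changed sign. All 10 came from leaving out 1 array and were uncalled differences near 0. Over these fits Col1a2 ran from -0.12 to 0.03 with hormone and from -0.02 to 0.06 on average, Col3a1 from -0.05 to 0.08 without hormone, -0.15 to 0.05 with hormone and -0.07 to 0.03 on average, and Col5a1 from -0.12 to 0.01 with hormone and -0.01 to 0.05 on average. Averaged over treatments, the calls of Col15a1, Col2a1, Col7a1, Col11a1, Col4a6, Col5a3, Col5a2, Col6a1, Col6a2 and Col6a3 held in all 15 alternatives. The Col9a3 call was lost in 1, without EA with hormone replicate 1 (2.42, adjusted p = 0.051), that of Col16a1 in 10, of Col1a1 in 9 and of Col4a2 in 13. Centring each array on its median left 20 passing on average. Signal over background could not be judged without detection calls.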
